A study of Mus musculus with 2 samples.

Results

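The clustered histone genes of the mouse code for the core histones H2A, H2B, H3 and H4 and for the linker histone H1, and most of them sit in clusters in the genome. They were chosen as all genes whose symbol starts with Hist1h, Hist2h, Hist3h or Hist4h and that held at least 10 unique molecular identifiers (UMIs, each the tag of 1 captured RNA molecule) over both libraries. Of 32285 genes in the count tables, 67 carry such a symbol and 62 of them reached 10 UMIs. The members were 5 genes for H1, 16 for H2a, 16 for H2b, 12 for H3 and 13 for H4. Just inside the limit stood Hist1h2ah with 10 UMIs, and just outside it Hist2h2aa2 and Hist1h1t with 8 UMIs each. Hist1h2bq, Hist1h2ba and Hist1h2aa held 0 UMIs in both libraries.

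Live CD45+ cells, which are cells of the immune lineage, were sorted from liver tumors and profiled with droplet-based 3′ single-cell RNA sequencing. Tumors were induced in male wild-type C57BL/6 J mice, 6 to 8 weeks old, by tail vein injection of plasmids for human MYC, for Cas9 with a guide against Trp53 (the vector PX330) and for sleeping beauty transposase. From 12 days later the mice received lenvatinib, an inhibitor of receptor tyrosine kinases, at 30 mg/kg for 25 days, so that both groups had been treated with lenvatinib before they were split. One library came from tumors kept on lenvatinib and the other, named combo, from tumors given lenvatinib and palbociclib at 100 mg/kg, an inhibitor of the kinases CDK4 and CDK6 that act at the entry into S phase. The plasmids act in hepatocytes, the immune cells come from the host, and the number of mice pooled into a library is not given in the sources used here. With 1 library per group there is no replicate and no test, and a batch cannot be told apart from the treatment. All intervals below are 95% intervals and cover counting error only.

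Each time a cell copies its DNA it has to make a full new set of histones, so most clustered histone genes are transcribed during S phase and their RNA is destroyed at its end. Their RNAs differ from other messenger RNAs in that they usually end in a short stem-loop instead of a poly(A) tail. The stem-loop is bound by SLBP, which guides processing, translation and decay. A smaller number of members can also make polyadenylated RNA that ends further downstream, including in cells that have left the cycle. The libraries here captured RNA by its poly(A) tail, so a UMI of a clustered histone gene is a molecule that carried such a tail or an internal run of A, and the level of RNA that ends at the stem-loop was not measured.

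A stem-loop that fits the histone pattern of a 6-base stem, a 4-base loop and the opposite stem arm was found in the annotated 3′ UTR of 44 of the 62 members, between 21 and 58 bases after the stop codon. Of the other members, 11 have no annotated 3′ UTR at all. The letters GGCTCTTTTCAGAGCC were shared by 25 members. The lines below give the stem-loop in capitals with its flanks for members on which the results turn, as DNA letters from the GENCODE vM21 transcripts (build mm10).
Hist1h2ap: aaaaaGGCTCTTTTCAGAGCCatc
Hist1h2ae: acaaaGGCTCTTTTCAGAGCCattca
Hist1h3c: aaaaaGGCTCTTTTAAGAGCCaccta
Hist1h4d: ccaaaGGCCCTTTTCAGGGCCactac
Hist1h1e: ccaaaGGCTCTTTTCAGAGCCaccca
Hist1h1c: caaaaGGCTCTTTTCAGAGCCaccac
Hist3h2a: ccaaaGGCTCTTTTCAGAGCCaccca

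The stem-loop letters of Hist1h2ap and Hist1h1c are the same, and what differs is how far the annotated transcript runs on past them. Hist1h2ap (chr13:21833026-21833507, minus strand) ends 3 bases after its stem-loop and has a 3′ UTR of 57 bases. Hist1h3c (chr13:23744973-23745602, minus strand) runs on for 74 bases. Hist1h1c (chr13:23738808-23740367, plus strand) has a 3′ UTR of 880 bases, of which 840 lie past the stem-loop. Hist3h2a (chr11:58954685-58956830, plus strand) has 1700 bases of 3′ UTR and 1643 past the stem-loop. Hist1h2bc (chr13:23684199-23692908, plus strand) has 742 bases of 3′ UTR without a match to the pattern. In all, 21 members have an annotated 3′ UTR over 300 bases. The largest cluster, on chromosome 13, held 50 members between positions 21715763 and 23764406, with 9 on chromosome 3, 2 on chromosome 11 and 1 on chromosome 6.

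Near-identical copies limit how well single members can be told apart. In 29 of the 62 members at least 50% of the 50-base words in the last 300 bases of the transcript also occur in a transcript of another clustered histone gene. For Hist1h2ap, Hist1h1e, Hist1h3e, Hist1h3f, Hist1h4m and Hist2h2aa1 this share was 100%, and for Hist1h1c, Hist1h1b, Hist1h4d, Hist3h2a and Hist1h2bc it was 0%. The transcripts of Hist1h1e and Hist1h2be overlap on the same strand. The values of members with shared ends are uncertain as values of 1 gene. Reads that map to several genes were not counted, so the sums over a class are affected too.

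Upstream of the genes, 61 of the 67 symbols were matched to a promoter in RefSeq (build GRCm38.p6), and the 250 bases before the start were searched on both strands. The octamer ATTTGCAT, the letters bound by OCT factors and known from H2B promoters, stood in 7 of 17 H2a and 7 of 16 H2b promoters and in none of the 6 H1, 10 H3 and 12 H4 promoters. Over 27025 genes the same letters were found in 1.81%. CCAAT stood in 50 of the 61 promoters (82.0%, against 37.5% of all genes) and TATAAA in 29 (47.5%, against 14.3%). The lines below print an H2a promoter of a member that was higher in dividing cells (Hist1h2ab), an H2a promoter of a member that was not (Hist3h2a) and that of Hist1h1c, with the octamer in capitals. They cover chr13:23750838-23751087, chr11:58954435-58954684 and chr13:23738557-23738806, all on the plus strand.
Hist1h2ab: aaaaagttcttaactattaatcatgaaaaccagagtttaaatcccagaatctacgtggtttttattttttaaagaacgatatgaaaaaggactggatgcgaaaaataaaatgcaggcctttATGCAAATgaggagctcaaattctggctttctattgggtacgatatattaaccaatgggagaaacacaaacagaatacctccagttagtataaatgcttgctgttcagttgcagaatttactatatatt
Hist3h2a: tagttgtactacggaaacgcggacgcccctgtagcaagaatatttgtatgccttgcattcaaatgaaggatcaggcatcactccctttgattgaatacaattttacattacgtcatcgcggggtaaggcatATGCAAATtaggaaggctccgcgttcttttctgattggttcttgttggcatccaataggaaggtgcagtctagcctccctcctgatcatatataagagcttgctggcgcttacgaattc
Hist1h1c: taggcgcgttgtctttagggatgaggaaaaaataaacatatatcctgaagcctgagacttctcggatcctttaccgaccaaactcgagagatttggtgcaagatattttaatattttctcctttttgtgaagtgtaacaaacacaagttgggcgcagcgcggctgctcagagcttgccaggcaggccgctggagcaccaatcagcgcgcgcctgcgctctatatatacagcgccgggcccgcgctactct

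The octamer was present in both H2a promoters, and these letters were not in the window of Hist1h1c. A match is a description of the letters and no factor was measured.

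After cells with over 6000 genes or over 25% mt- UMIs were removed, 14201 cells with a median of 5541 UMIs were left under lenvatinib and 11613 with a median of 5754 under combo. A UMI of Ptprc, which encodes CD45, was found in 95.4% of the cells of both libraries. The 49 barcodes found in both libraries were kept. Cells were gated by marker genes, with at least 3 of 8 markers of a type and more than of any other type. The T gate held 7032 cells under lenvatinib and 5224 under combo, the NK gate 3031 and 1160, the B gate 614 and 644, and the neutrophil gate 824 and 2082. Neutrophils thus made up 5.80% under lenvatinib and 17.9% under combo.

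Each cell also received a cycling state from 20 genes that are not histones. A cell in S carried UMIs of at least 3 of 10 genes of DNA replication (such as Mcm5, Pcna and Rrm2) and fewer than 3 of 10 genes of G2 and mitosis (such as Mki67, Top2a and Ccnb1), a G2/M cell the reverse, and a cell in both reached 3 in each list. Cells with UMIs of some of the 20 genes, but fewer than 3 of either list, were kept as a state between. Cells without a UMI of any of the 20 genes are called non-cycling in what follows, with the caution that a shallow cell reaches this state more easily. In T cells the median depth was 3331 UMIs in non-cycling cells, 8306.5 in S and 13441 in S and G2/M under lenvatinib, and 4099.5, 9045 and 16393 under combo.

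The members together held 93324 UMIs under lenvatinib and 69620 under combo. Scaled to all UMIs of the same cells this was 981 CPM (counts scaled so that all UMIs of the cells sum to 1e+06) under lenvatinib (interval 975 to 987) and 772 under combo (766 to 778). The 4 members with most UMIs were Hist1h2ap, Hist1h1c, Hist1h2ae and Hist1h1e, which made up 47.4% of histone UMIs under lenvatinib and 48.8% under combo. The 20 members with most UMIs made up 87.6% and 90.1%. H1 genes made up 31.0% of histone UMIs under lenvatinib and 36.3% under combo, H2a 38.9% and 30.6%, H2b 9.51% and 14.6%, H3 8.41% and 5.23%, and H4 12.1% and 13.4%. H2a and H3 thus took a smaller share under combo, and H1, H2b and H4 a larger one. UMI counts were not scaled by transcript length, and since capture differs between ends, these shares are shares of captured tags.

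The first question was how the members follow the cell cycle inside 1 cell type. In T cells under lenvatinib the summed level was 411 CPM in non-cycling cells (388 to 435), 341 in S (331 to 350), 3911 in S and G2/M (3869 to 3953) and 962 in G2/M (900 to 1027). Under combo it was 563 CPM in non-cycling cells (540 to 586), 464 in S (450 to 478), 3484 in S and G2/M (3411 to 3559) and 874 in G2/M (751 to 1011). The state with genes of both lists stood apart in both libraries, and cells with replication genes alone did not exceed non-cycling cells. The ratio of S to non-cycling T cells was 0.829 (0.778 to 0.884) in the lenvatinib library and 0.825 (0.784 to 0.868) in the combo library.

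This order of S and non-cycling cells depended on depth. When every cell was thinned to 2000 UMIs, so that all cells were equally deep when their state was called, S was higher than non-cycling by 1.82 times under lenvatinib (1.65 to 2.00) and by 1.36 times under combo (1.19 to 1.55). Among members with at least 50 UMIs in the cells compared, Hist1h1b, an H1 gene, had the largest ratio of S to non-cycling cells in both libraries without thinning, at 1.29 (0.82 to 2.12) and 2.49 (1.48 to 4.47). The smallest among the same members under lenvatinib were Hist1h2ac (0.52), Hist2h4 (0.52) and Hist3h2ba (0.54), and under combo Hist2h2bb (0.39), Hist4h4 (0.53) and Hist2h4 (0.58). No member was past 2-fold higher in S in both libraries, of 37 with at least 10 UMIs in each library, where 1.5% of 12101 genes were. The contrast of S and G2/M with non-cycling cells was added after these values were seen. It gave 9.52 times under lenvatinib (8.99 to 10.1) and 6.19 times under combo (5.92 to 6.49), and 15.0 and 12.2 times after thinning.

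**Figure D1:**
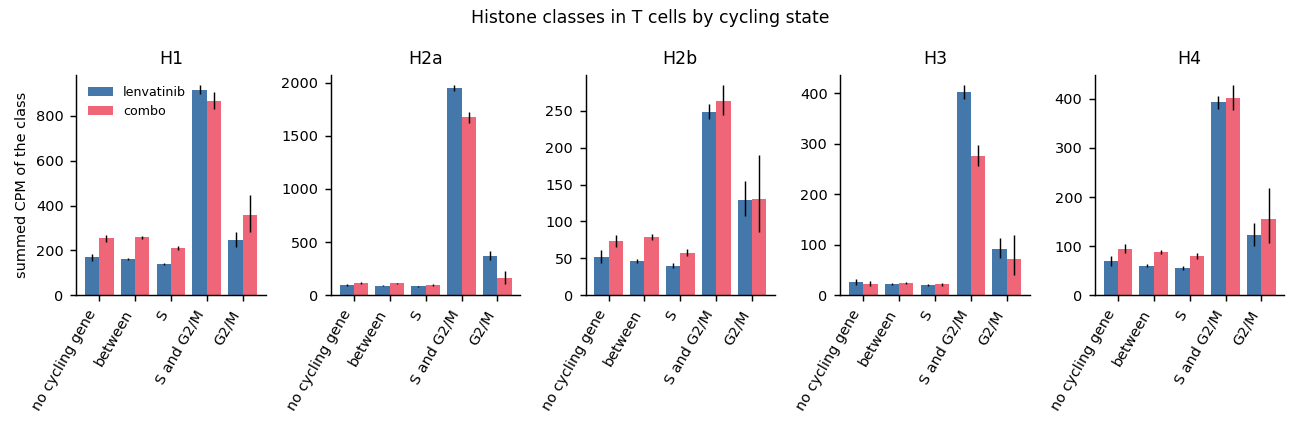
Summed CPM of each histone class (vertical axis, linear, 1 panel per class with its own scale) in T cells by cycling state, with blue bars for lenvatinib, red bars for combo and 95% Poisson intervals as lines. All classes are highest in the S and G2/M state, where H3 stands at 402 CPM under lenvatinib and 275 under combo.

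All 5 classes were higher in S and G2/M than in non-cycling T cells in both libraries, as the bars by state show. H2a, whose dimer with H2B sits on the outer part of the nucleosome, went from 95.7 CPM in non-cycling to 1949 in S and G2/M cells under lenvatinib, and from 118 to 1676 under combo. H3, which with H4 forms the central tetramer, went from 26.0 to 402 CPM under lenvatinib and from 22.7 to 275 under combo. H4 went from 69.0 to 393 CPM and from 95.1 to 403. H2b went from 51.7 to 249 CPM and from 72.8 to 264. H1, which binds the DNA between nucleosomes, went from 168 to 917 CPM and from 254 to 867.

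Of the 49 members with at least 10 UMIs in the contrast in each library, 41 were past 2-fold higher in S and G2/M in both, against 6.62% of 11144 genes. With cells thinned to 2000 UMIs the count of members was 27, and only 37 combo T cells were in this state. The number of members tested and the share of all genes after thinning are not given here. The 41 members past 2-fold without thinning are called cycle-linked members in what follows, a name that rests on these same cells. The other 8 were Hist1h1c, Hist3h2a, Hist1h2ac, Hist3h2ba, Hist2h2be, Hist1h4c, Hist4h4 and Hist2h4. Among them Hist1h4c missed the limit under combo only, at 4.14 times under lenvatinib (2.53 to 7.25) and 1.83 times under combo (1.09 to 3.08). The remaining 13 of the 62 members fell under 10 UMIs in 1 or both contrasts. By class, 4 of 5 H1, 11 of 13 H2a, 12 of 14 H2b, 8 of 8 H3 and 6 of 9 H4 members were cycle-linked.

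**Figure D2:**
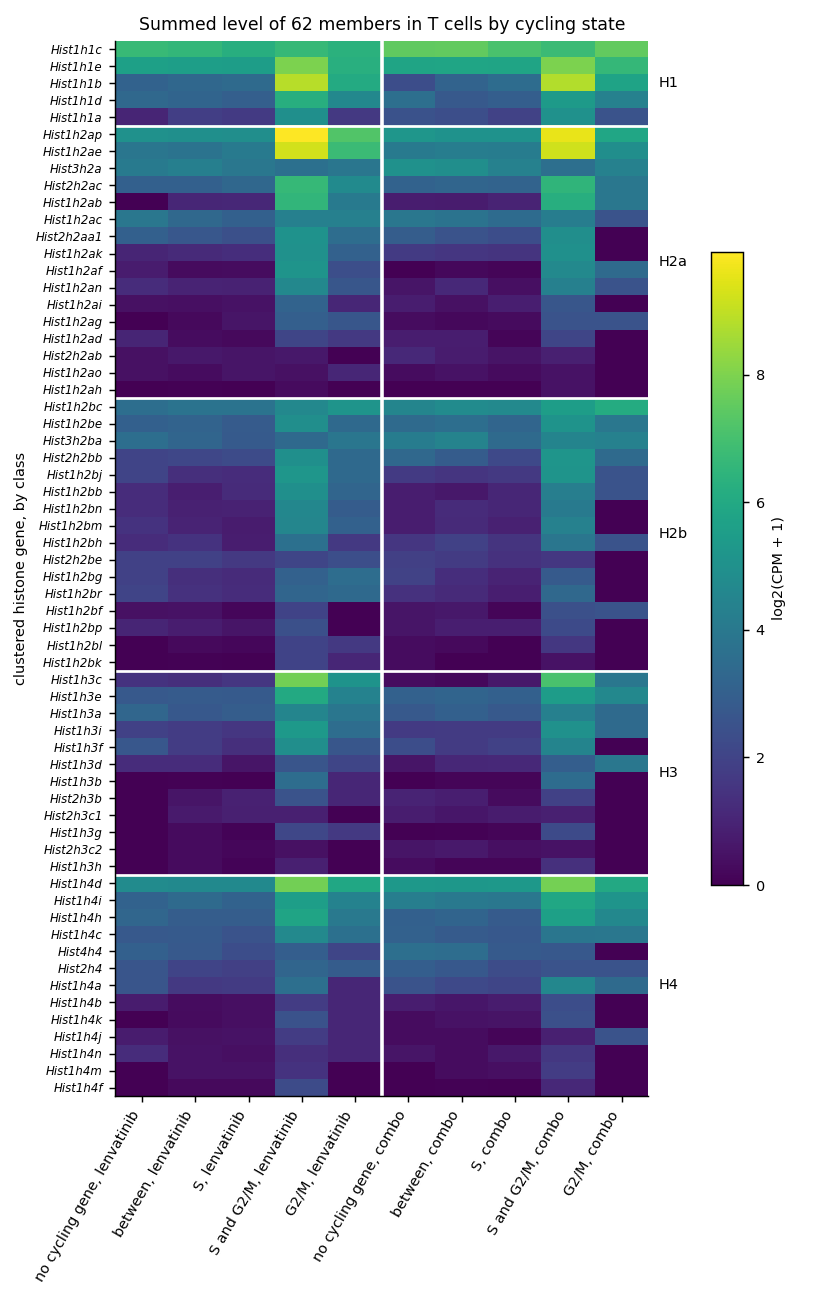
Level of the 62 members (rows, grouped by class and ordered by UMIs) in T cells by cycling state and library (columns), with color as log2(CPM + 1). The S and G2/M column stands out in both libraries for most rows, from Hist1h2ap down to members with few UMIs, whereas Hist1h1c, Hist3h2a and Hist4h4 do not follow it.

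Hist1h2ap, a gene for canonical H2A, stood at 31.9 CPM in non-cycling and 974 in S and G2/M T cells under lenvatinib, and at 35.8 and 777 under combo. Hist1h2ae, another H2A gene, stood at 13.9 and 612 CPM under lenvatinib, and at 15.5 and 590 under combo. Hist1h3c, a gene for the replication-coupled H3, was nearly absent in non-cycling and S cells. In G2/M cells it stood at 33.2 CPM under lenvatinib and at 14.5 under combo, the latter from 3 UMIs. It held 5 UMIs in non-cycling T cells under lenvatinib and 1 under combo, with 1.73 and 0.24 CPM, against 222 and 133 CPM in S and G2/M. Its level was 128 times as high under lenvatinib (54.8 to 395) and 550 times under combo, where 1 UMI left an interval of 98.1 to 21794. Hist1h2ab had 0 UMIs in non-cycling T cells under lenvatinib, so that its 91.5 CPM in S and G2/M was at least 87.9-fold higher, taking 3 counts as the floor of the non-cycling cells. Under combo its 73.4 CPM was 101.1 times the non-cycling level (34.1 to 495).

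Linker histones did not move as 1 group. Hist1h1b, which encodes H1.5, stood at 7.63 CPM in non-cycling and 464 in S and G2/M T cells under lenvatinib (60.8 times, 40.1 to 97.1), and at 4.11 and 438 under combo (106 times, 66.1 to 183). Hist1h1a, which encodes H1.1, stood at 1.04 and 29.99 CPM under lenvatinib and at 4.60 and 31.9 under combo. Hist1h1d, which encodes H1.3, stood at 9.36 and 74.7 CPM under lenvatinib and at 11.4 and 41.5 under combo. Hist1h1e, which encodes H1.4, was 5.08 times as high in S and G2/M under lenvatinib (4.28 to 6.06) and 4.48 times under combo (3.85 to 5.24).

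Hist1h1c, which encodes H1.2, differed from these. It stood at 100.9 CPM in non-cycling, 74.6 in S, 98.4 in S and G2/M and 79.2 in G2/M T cells under lenvatinib. Under combo it stood at 179, 134, 108 and 183 CPM. Its ratio of S and G2/M to non-cycling cells was 0.975 (0.853 to 1.12) in the lenvatinib library and 0.603 (0.522 to 0.695) in the combo library. The level in S and G2/M thus differed from that in non-cycling cells by less than counting error under lenvatinib, and was lower under combo. The lenvatinib level was 74.6 CPM in S and 79.2 in G2/M, against 100.9 in non-cycling cells. The combo level was 134 CPM in S and 183 in G2/M, against 179 in non-cycling cells. At 2000 UMIs a UMI of Hist1h1c was seen in 14.8% of non-cycling and 14.3% of S and G2/M T cells under lenvatinib, where Hist1h2ap went from 5.61% to 82.6%. The shares without thinning were 24.9% and 59.0% for Hist1h1c and 10.2% and 76.6% for Hist1h2ap.

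Hist3h2a and Hist4h4 also were not higher in dividing cells. Hist3h2a, a gene for H2A outside the large cluster, stood at 15.95 CPM in non-cycling and 11.8 in S and G2/M T cells under lenvatinib (0.74 times, 0.52 to 1.07), and at 31.5 and 11.3 under combo (0.36 times, 0.23 to 0.54). Hist4h4, the H4 gene on chromosome 6, stood at 7.28 and 6.83 CPM under lenvatinib and at 11.4 and 5.65 under combo. Hist3h2ba stood at 11.1 and 9.61 CPM under lenvatinib and at 16.9 and 21.4 under combo, with intervals of the ratio that include 1.

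The annotated 3′ UTR was shorter in most cycle-linked members than in most of the others, although the groups overlapped. The median 3′ UTR was 90 bases in the 41 cycle-linked members and 1506 bases in the other 8, where members without an annotated 3′ UTR counted as 0 bases. Of 18 members with a 3′ UTR over 300 bases 11 were cycle-linked, of 23 with 1 to 300 bases 22 were, and of 8 without an annotated 3′ UTR all 8 were. The median ratio of S and G2/M to non-cycling cells was 3.89 under lenvatinib and 3.38 under combo for the long ends, 8.68 and 9.17 for the short ends, and 17.1 and 16.4 for genes with none annotated. Across the 41 members with an annotated 3′ UTR, its length and the ratio had a Spearman rho of -0.59 under lenvatinib and -0.62 under combo. This is a description across genes, which share cells, libraries and sequence and are not independent. The stem-loop itself was found in 28 of the 41 cycle-linked members and in 7 of the other 8. Only annotated 3′ UTRs were searched, and 8 of the cycle-linked members have none. These counts thus cannot show whether the stem-loop separates the groups.

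Some members went against this order. Hist1h1d has a 3′ UTR of 4931 bases, the longest among the 62 members, and was 7.98 times as high in S and G2/M T cells under lenvatinib (5.43 to 12.2) and 3.65 times under combo (2.56 to 5.27). Hist1h4d, with 822 bases, was 8.58 (6.82 to 10.9) and 6.14 times as high (5.14 to 7.38). Among members with 1 to 300 bases, the exception was Hist3h2ba with 213 bases.

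**Figure D3:**
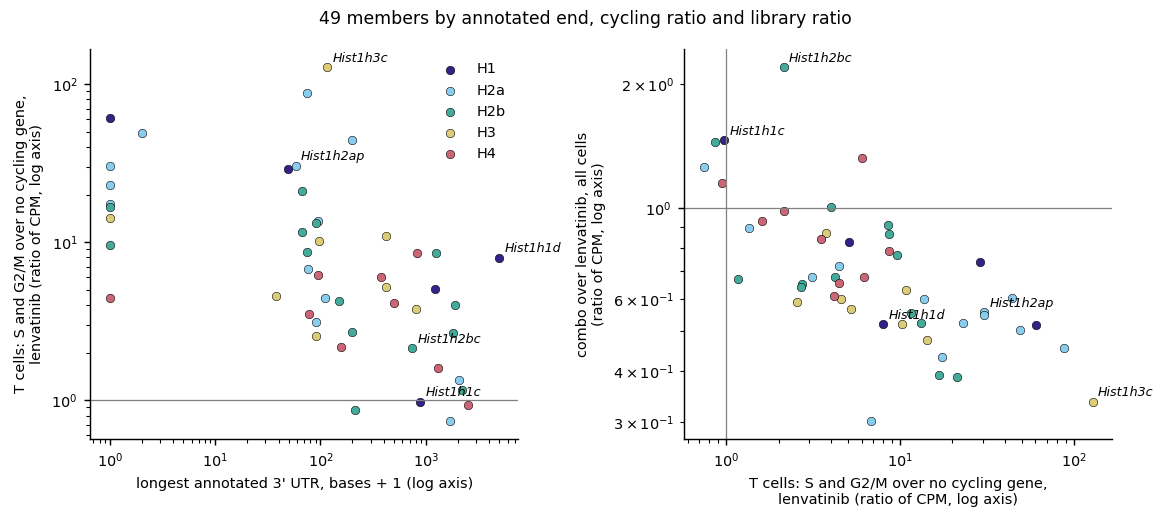
Left, annotated 3′ UTR length plus 1 base against the ratio of S and G2/M to non-cycling T cells under lenvatinib, for 49 members colored by class; right, the same ratio against the ratio of combo to lenvatinib over all cells (all axes log, grey lines at 1, a count of 0 set to 3). Members with long 3′ UTRs reach from 0.74 to 10.9 on the left, and most members far to the right, such as Hist1h3c at 128, lie below 1 on the vertical axis.

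Counts per cell showed how concentrated the signal was. After thinning to 2000 UMIs, non-cycling T cells held a mean of 0.76 histone UMIs under lenvatinib and 1.16 under combo, and S and G2/M cells 11.4 and 14.2. The median S and G2/M cell held UMIs of 6 different members under lenvatinib and of 7 under combo. At least 10 histone UMIs were found in 0 of 2194 non-cycling T cells under lenvatinib, which allows a share of up to 0.168% (Clopper-Pearson), and in 6 of 2348 under combo. In S and G2/M it was 125 of 230 cells under lenvatinib (54.3%, 47.7 to 60.9) and 24 of 37 under combo (64.9%, 47.5 to 79.8). T cells left out because they held fewer than 2000 UMIs were 515 under lenvatinib and 169 under combo.

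T cells of all gates carried the members when in S and G2/M. Under lenvatinib CD8 T cells in this state stood at 3818 CPM (3769 to 3867, 418 cells), CD4 T cells at 4255 (4021 to 4500, 26 cells) and Foxp3-positive T cells at 4302 (4139 to 4470, 33 cells), so CD8 T cells were the lowest. Under combo they stood at 3304 CPM (86 cells) and 4810 (20 cells) for CD8 and CD4, and at 8224 for Foxp3-positive cells, of which there were 2. The share of cells in S and G2/M, without thinning, was 10.0% of CD8 (9.15 to 11.0), 5.70% of CD4 (3.76 to 8.24) and 6.13% of Foxp3-positive T cells under lenvatinib. It was 2.81% of CD8 (2.25 to 3.46), 3.57% of CD4 (2.19 to 5.45) and 2.44% of Foxp3-positive T cells under combo.

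The second question was how the members differ between lenvatinib and combo. Over all cells the sum was lower under combo, by a ratio of 0.787 (0.779 to 0.795). Of the 62 members, 53 were lower and 9 higher, with a median ratio of 0.65, where the median over all genes was 0.87. Past 2-fold lower were 12, where 7.44% of 17780 genes were, and past 2-fold higher was 1, where 9.35% were. In this sum over all cells, fewer cells of a type and less RNA per cell cannot be told apart. By class the ratio was 0.92 for H1 (0.90 to 0.93), 0.62 for H2a (0.61 to 0.63), 1.21 for H2b (1.17 to 1.24), 0.49 for H3 (0.47 to 0.51) and 0.87 for H4 (0.84 to 0.89). When every cell was thinned to 2000 UMIs the sum was 717 CPM under lenvatinib and 699 under combo, a ratio of 0.975 (0.954 to 0.997). H2a and H3 stayed lower (0.66 and 0.55) and H2b higher (1.52), whereas H1 and H4 turned to 1.15 and 1.05. The sum over unthinned cells weighs deep cells more, and the S and G2/M cells were the deepest.

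The ratio between the libraries was also given, without thinning, for the groups set by the cycling ratio. These groups were set in the same cells, and fewer T cells were in S and G2/M under combo. The group ratios are thus a description and no separate evidence. The 41 cycle-linked members together stood at 813 CPM under lenvatinib and 558 under combo, a ratio of 0.69 (0.68 to 0.69), and 38 of them were lower under combo. Their median ratio was 0.60, where the median over all genes was 0.87. The 3 that were not lower were Hist1h2bc, Hist1h4i and Hist1h2be, the last at 1.003 (0.92 to 1.09). The 8 members that were not cycle-linked stood at 160 and 210 CPM together, a ratio of 1.31 (1.28 to 1.34), with 4 of 8 lower. Most UMIs of that group came from Hist1h1c.

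Hist1h3c stood at 35.1 CPM under lenvatinib and 11.8 under combo over all cells, a ratio of 0.34 (0.31 to 0.36). Hist1h2ag and Hist1h4f were lower still, at 0.30 (0.21 to 0.43) and 0.18 (0.083 to 0.36), from 150 and 58 UMIs under lenvatinib. Hist1h2ap stood at 171 and 95.1 CPM (0.56, 0.54 to 0.57), Hist1h2ae at 107 and 64.6 (0.60, 0.58 to 0.62) and Hist1h1b at 91.9 and 47.7 (0.52, 0.50 to 0.54). All but Hist1h4f, which had too few UMIs to be sorted, were cycle-linked.

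On the other side stood Hist1h2bc, Hist2h3c2 and Hist1h1c. Hist1h2bc, an H2B gene, stood at 28.3 CPM under lenvatinib and 62.4 under combo (2.20, 2.11 to 2.31), the 1 member past 2-fold higher. Hist1h1c stood at 98.9 and 144 CPM (1.46, 1.423 to 1.5005). Hist2h3c2 rested on 32 and 47 UMIs, and the interval of its ratio of 1.55 included 1 (0.97 to 2.51). Hist3h2a stood at 21.3 and 26.8 CPM (1.26, 1.19 to 1.34), and Hist3h2ba at 7.91 and 11.5. Hist1h2ac, at 11.8 and 10.6 CPM, lay close to 1 (0.89, 0.82 to 0.98).

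Most other members among the 20 with most UMIs were lower under combo. Hist1h1e stood at 88.1 and 72.8 CPM (0.83, 0.80 to 0.85) and Hist1h4d at 58.4 and 45.9 (0.79, 0.75 to 0.82). Hist1h1d stood at 18.5 and 9.62 CPM (0.52, 0.48 to 0.57), Hist2h2ac at 22.5 and 13.5 (0.60, 0.56 to 0.64) and Hist1h2ab at 16.5 and 7.49 (0.46, 0.42 to 0.50). These genes spread over H1, H2a and H4. Hist1h3e was 0.63, Hist1h3a 0.59, Hist1h4h 0.68 and Hist2h2aa1 0.72 times as high under combo. Hist1h1a, the H1 member with fewest UMIs, stood at 7.31 and 5.40 CPM (0.74, 0.66 to 0.83). Hist1h4i, with 20.2 and 26.8 CPM, was higher under combo (1.32, 1.25 to 1.40).

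Fewer dividing cells and less histone RNA per dividing cell are separate quantities, and single cells allowed both to be given for T cells. After thinning, 841 of 6517 T cells under lenvatinib (12.9%, 12.1 to 13.7) and 230 of 5055 under combo (4.55%, 3.99 to 5.16) were in S, S and G2/M, or G2/M, a ratio of 0.35. Without thinning the shares were 33.5% and 20.1%. The S and G2/M state alone held 3.53% of T cells under lenvatinib (3.09 to 4.01) and 0.73% under combo (0.52 to 1.01). Inside this state the summed level was 0.89 times as high under combo (0.87 to 0.91) without thinning, and 1.24 times as high (1.13 to 1.36) with it, so its direction turned with the depth at which state was called. Only 37 combo T cells were in this state after thinning. Without thinning, S100a8, a granulocyte gene, stood at 1033 CPM in the lenvatinib library and 4180 in the combo library in the T cells of this state, and Lyz2, a myeloid gene, at 77.8 and 773, and their part in the ratio was not tested.

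Inside the S and G2/M state without thinning, H3 was lower under combo, at 402 and 275 CPM (0.68, 0.63 to 0.74). After thinning it was 585 and 541 CPM (0.92, 0.65 to 1.29), an interval that includes 1. H2a was 0.86 times as high under combo without thinning (0.83 to 0.89) and 1.25 times with it (1.10 to 1.43). H1 was 0.95 times as high without thinning (0.90 to 0.99), H2b 1.06 (0.97 to 1.16) and H4 1.02 (0.95 to 1.10). After thinning, H1 was 1.27 (1.03 to 1.56), H2b 1.58 (1.10 to 2.22) and H4 1.22 (0.87 to 1.68). Among members with at least 50 UMIs, without thinning, Hist1h1d (0.56), Hist1h4c (0.56) and Hist2h4 (0.58) had the smallest ratios, the last with an interval that includes 1. Hist3h2ba (2.22), Hist1h4a (2.08) and Hist1h2bc (1.89) had the largest.

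Over all T cells the sum stood at 992 CPM under lenvatinib and 745 under combo (0.75, 0.74 to 0.76), and 0.969 (0.939 to 0.999) after thinning. The classes spread widely here. H3 was 0.46 times (0.44 to 0.49) and H2a 0.53 times as high under combo (0.51 to 0.54), whereas H1 was 1.003 (0.98 to 1.03) and H2b 1.06 (1.01 to 1.12). After thinning, H3 was 0.52 and H2a 0.63 times as high, whereas H1 was 1.30 (1.24 to 1.37), H2b 1.31 (1.19 to 1.44) and H4 1.12 (1.03 to 1.22). Among members with at least 50 UMIs there, Hist1h3c (0.24), Hist1h2af (0.30) and Hist1h2bb (0.33) had the smallest ratios in T cells, and Hist3h2ba (2.13), Hist1h1c (1.84) and Hist1h2bc (1.82) the largest. The cycling states as 1 group stood at 1632 CPM under lenvatinib and 1114 under combo (0.68, 0.67 to 0.70).

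Non-cycling T cells went the other way, with 411 CPM under lenvatinib and 563 under combo (1.37, 1.28 to 1.47) and 1.52 after thinning (1.43 to 1.62). Of 32 members with at least 10 UMIs in these cells, 22 were higher under combo and 4 were past 2-fold higher, where 3.85% of 11234 genes were. None of the 32 was past 2-fold lower. The 4 were Hist1h4i and, named after their values were seen, Hist2h2bb, Hist1h1a and Hist1h2ak, the last 3 from 9, 3 and 3 UMIs under lenvatinib. Hist1h1c made up the largest part of the difference, at 100.9 and 179 CPM (1.77, 1.54 to 2.03). Hist1h4i stood at 7.63 and 17.9 CPM (2.35, 1.44 to 3.97), Hist1h2bc at 11.1 and 22.02 (1.98, 1.31 to 3.07) and Hist3h2a at 15.95 and 31.5 (1.97, 1.40 to 2.82). Hist1h4h (0.84), Hist1h2ac (1.004) and Hist2h2ac (1.06) had the smallest ratios among members with at least 50 UMIs, all with intervals that include 1. After thinning, a UMI of Hist1h1c was seen in 14.8% of non-cycling T cells under lenvatinib (13.4 to 16.4) and in 25.2% under combo (23.5 to 27.0).

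RNA of neutrophils moved with the library too. S100a8 stood at 327 CPM in non-cycling T cells under lenvatinib and at 1625 under combo, and at 72775 and 141076 CPM in non-cycling neutrophils. These T cells thus held 0.45% and 1.15% of the neutrophil level. Its part in the member levels was not tested.

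The third question was which members other cell types carry when they do not cycle. The sum in non-cycling cells was 464 CPM in NK cells (427 to 504), 671 in B cells (607 to 741), 521 in neutrophils (481 to 563), 537 in monocytes and macrophages (464 to 617) and 473 in plasmacytoid dendritic cells (391 to 568) under lenvatinib. Under combo it was 693 (642 to 746), 789 (731 to 851), 482 (466 to 497), 314 (282 to 350) and 436 (384 to 492). B cells were the highest of these types in both libraries, and their interval did not overlap that of T cells in either. NK cells stood at 1.13 times the level of T cells under lenvatinib (1.02 to 1.25), although the intervals of the 2 levels overlapped. Under combo the ratio was 1.23 (1.13 to 1.34). Hist1h1c was the member with most UMIs in non-cycling T, NK and B cells and in monocytes and macrophages in both libraries, at 128 and 209 CPM in NK cells and 202 and 231 in B cells.

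**Figure D4:**
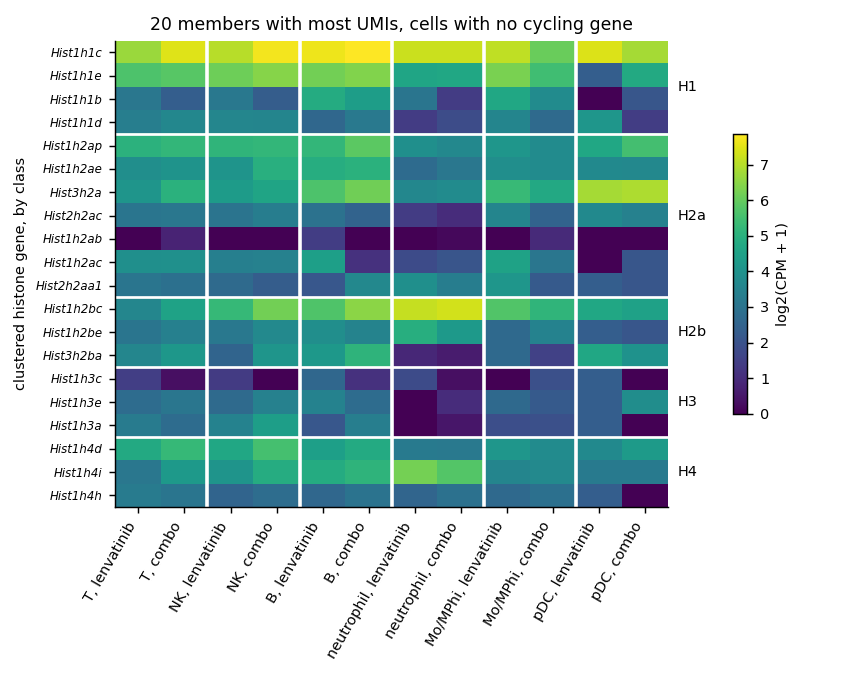
Level of the 20 members with most UMIs (rows, by class) in cells without a cycling gene, for 6 gated cell types and both libraries (columns), with color as log2(CPM + 1). Hist1h1c is high in every type, Hist1h2bc and Hist1h4i are highest in neutrophils, and Hist3h2a is highest in plasmacytoid dendritic cells.

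Few members were past 2-fold higher in non-cycling neutrophils than in non-cycling T cells. Under lenvatinib it was 3 of 28 members with at least 10 UMIs, where 14.1% of genes were. Under combo it was 3 of 32, again against 14.1% of genes. In these neutrophils Hist1h2bc stood at 143 CPM under lenvatinib and 158 under combo. This was 12.9 times (8.79 to 19.4) and 7.18 times (5.80 to 8.98) the level in non-cycling T cells. Hist1h4i stood at 73.9 and 52.5 CPM, 9.69 times (6.02 to 16.2) and 2.93 times (2.28 to 3.81) the T cell level. Hist1h2be stood at 29.6 and 17.8 CPM. After thinning, a UMI of Hist1h2bc was seen in 26.7% of these neutrophils under lenvatinib (22.4 to 31.4) and 27.7% under combo (25.5 to 30.01), against 1.78% and 4.09% of non-cycling T cells.

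Between these neutrophils and T cells the median gene stood at a ratio of 0.53 under lenvatinib and 0.41 under combo, and the median member at 0.48 and 0.22, so low ratios were common among all genes. Hist1h4d stood at 8.21 and 8.09 CPM, 0.31 times (0.14 to 0.60) and 0.21 times (0.16 to 0.29) the T cell level. Under lenvatinib Hist1h2ap stood at 14.0 CPM, 0.44 times (0.24 to 0.74), and Hist1h1e at 23.8 CPM, 0.48 times (0.31 to 0.72), both near the median gene. Hist3h2ba held 4 UMIs under combo, 0.03 times (0.0080 to 0.080) the T cell level. Over all cells Hist1h2bc was higher under combo, where the share of neutrophils was also larger. Within non-cycling neutrophils it stood at 143 and 158 CPM. It was also higher under combo in non-cycling T cells, at 11.1 and 22.02 CPM, NK cells, at 37.2 and 72.2, and B cells, at 51.2 and 88.2. The part of the cell makeup in the difference over all cells was not tested.

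Hist3h2a was highest in plasmacytoid dendritic cells, which make type I interferon. It stood there at 110 CPM under lenvatinib and 118 under combo in non-cycling cells, 6.90 times (4.13 to 11.3) and 3.75 times (2.77 to 5.05) the T cell level. In B cells it stood at 49.5 and 69.6 CPM, 3.11 times (1.88 to 5.05) and 2.21 times (1.60 to 3.03) the T cell level. Hist1h2ac stood at 3.33 CPM in plasmacytoid dendritic cells under combo, from 2 UMIs, 0.23 times the T cell level (0.028 to 0.88).

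**Figure D5:**
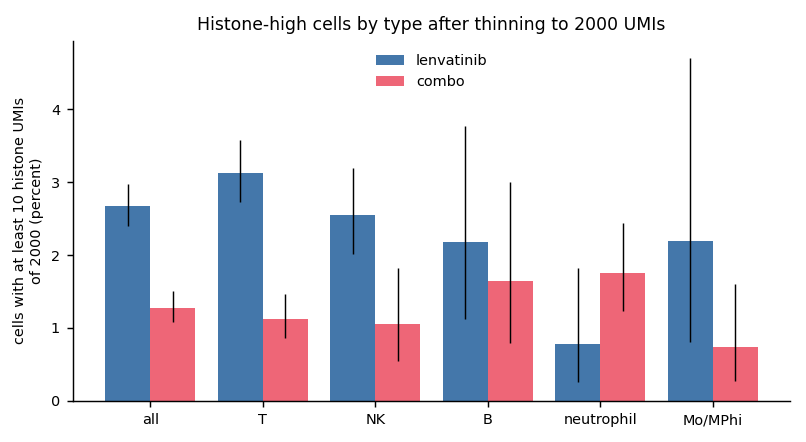
Share of cells (percent, linear axis from 0) with at least 10 histone UMIs after thinning each cell to 2000 UMIs, by gated type and library, with exact 95% intervals as lines. The share is lower under combo in all cells, T and NK cells, and the intervals of the libraries overlap in B cells, neutrophils and monocytes and macrophages.

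Cells rich in histone UMIs were 326 of 12173 under lenvatinib (2.68%, 2.40 to 2.98) and 139 of 10866 under combo (1.28%, 1.08 to 1.51) after thinning. In T cells they were 3.13% (2.72 to 3.58) and 1.13% (0.86 to 1.46), and in NK cells 2.55% (2.01 to 3.20) and 1.05% (0.54 to 1.82). In neutrophils they were 0.78% (0.25 to 1.82) and 1.76% (1.23 to 2.44), with intervals that overlap. Dividing cells of other types also carried the members. In S and G2/M the sum was 4083 CPM in NK cells under lenvatinib and 3047 under combo, and 5333 and 6723 in B cells, of which 23 and 5 were in this state. It was 2134 and 2973 CPM in neutrophils, from 15 and 70 cells. The 41 NK cells in S and G2/M under combo also carried 11683 CPM of S100a8, against 164 under lenvatinib, and the 5 B cells carried 47197 CPM, against 91 under lenvatinib. The part of this in either difference was not tested.

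The mRNAs of genes whose proteins act on histones or their RNA were counted in the same T cells. Of 11 measured genes for processing and transcription of histone RNA, 1 was past 2-fold higher in S and G2/M in both libraries, and none lower, against the 6.62% of all genes given above. It was Slbp, for the protein that binds the stem-loop, at 141 CPM in non-cycling and 290 in S and G2/M cells under lenvatinib and at 112 and 240 under combo. Npat, a coactivator of histone transcription at the clusters, stood at 24.6 and 35.3 CPM under lenvatinib and at 16.5 and 28.2 under combo. Over all cells 11 of the 12 genes on this list were lower under combo, with a median ratio of 0.65, where the median of all genes was 0.87.

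Of 12 histone chaperones, 6 were past 2-fold higher in S and G2/M in both libraries, against 6.62% of all genes. Asf1b, which hands H3 and H4 on, stood at 3.12 CPM in non-cycling and 110 in S and G2/M cells under lenvatinib and at 3.87 and 98.01 under combo. Chaf1a, the large subunit of the assembly factor CAF-1, stood at 3.47 and 54.7 CPM under lenvatinib and at 1.21 and 48.4 under combo. Hira and Daxx, chaperones of the replication-independent H3.3, stood at ratios of 1.16 and 0.83 under lenvatinib and 1.17 and 0.68 under combo. All 12 chaperones were lower under combo over all cells, with a median ratio of 0.76, where the median of all genes was 0.87.

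Of 9 measured histone variants that are encoded outside the clusters, 4 were past 2-fold higher in S and G2/M in both libraries, against 6.62% of all genes. H2afx stood at 36.8 CPM in non-cycling and 335 in S and G2/M cells under lenvatinib and at 47.2 and 287 under combo. H2afz was 4.13 times as high under lenvatinib and 4.04 times under combo, H2afv 4.05 and 3.69 times, and Cenpa, the H3 of the centromere, 4.50 and 4.15 times. H3f3b, which codes for H3.3 and is made throughout the cycle, stood at 1765 and 1954 CPM under lenvatinib and at 2347 and 2211 under combo. H3f3a, which also codes for H3.3, was 1.56 times as high in S and G2/M under lenvatinib (1.49 to 1.64) and 1.65 times under combo (1.58 to 1.73). Over all cells the variants had a median ratio of combo to lenvatinib of 1.06, with 5 of 10 lower. The median was 0.65 over the 62 clustered members and 0.87 over all genes.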

How the data were processed

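Live CD45+ cells of 2 libraries, lenvatinib and combo, were measured with 10X 3′ v3 chemistry, 1 library per group. The values deposited are UMI counts, not normalized, for each gene in each cell, made by the authors with Cell Ranger 5.0.1 per the submitters' processing notes on mm10, while the matrix header names 6.0.1. Reads that map to several genes are not counted by that tool. The annotation release behind the counts is not given in the sources used here, and gene structures come from GENCODE vM21.

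Cells with over 6000 genes or over 25% mt- UMIs were removed, as in the study's methods, which left 95123833 UMIs under lenvatinib and 90165246 under combo. Cell types were gated on at least 3 of 8 markers and cycling states on at least 3 of 10 genes, none of them a histone gene. Counts were summed per library and gate and scaled to all UMIs of the same cells (CPM). Intervals are exact Poisson for a level, Clopper-Pearson for a share and exact conditional binomial for a ratio. Where 1 side had 0 counts, 3 counts over the group were taken as its floor. Members and genes enter a contrast with at least 10 UMIs. For equal depth each cell was thinned to 2000 UMIs (seed 1) and shallower cells were left out. Scrublet, in scanpy 1.11.5, marked 4.46% and 2.76% of cells as doublets, which were kept. The scripts were tested on simulated data. Python 3.11.15, numpy 2.4.6, scipy 1.17.1 and pandas 2.3.3 were used.

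Named are all H1 members, the 20 members with most UMIs and, per main comparison, the 3 largest and 3 smallest ratios among members with at least 50 UMIs, plus genes of the lists for histone processing, chaperones and variants. The members and lists were chosen with earlier results of these data known. Alternatives covered the filters, the gates, the total, the depth, doublets and shared barcodes.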

Additional observations from a re-analysis of the deposited data

Results flagged for a closer look

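Non-cycling cells of different types moved in opposite directions between the libraries. The summed members had a ratio of combo to lenvatinib of 1.37 in T cells (1.28 to 1.47), 1.49 in NK cells (1.33 to 1.67) and 1.18 in B cells (1.04 to 1.33), against 0.586 in monocytes and macrophages (0.490 to 0.702). The same held for Hist1h1c, with 1.77 in T cells (1.54 to 2.03) and 1.64 in NK cells (1.33 to 2.03), against 0.479 in monocytes and macrophages (0.329 to 0.703) and 0.650 in plasmacytoid dendritic cells (0.436 to 0.980). With 1 library per group the difference between the types was not tested.

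Barcodes with over 6000 genes, which the cell filter removed and which enter only the alternative without a cell filter, carried 1992 CPM of the members under lenvatinib (37 barcodes) and 2686 under combo (54 barcodes), above the 981 and 772 CPM of the cells kept. Whether they hold more than 1 cell was not tested.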

How the results depend on the processing

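No paired analysis was possible because each group is 1 library. Of 134 alternative values, 91 stayed within counting error (or, for counts of members, within 1.5 times), 40 moved by more without changing direction and 3 reversed. All 3 reversals came from thinning to 2000 UMIs: S over non-cycling T cells turned to 1.82 under lenvatinib and 1.36 under combo, and combo over lenvatinib in S and G2/M T cells to 1.24. Thinning also gave 0.975 for combo over lenvatinib in all cells, 0.969 in T cells, 0.821 in cycling T cells and 1.52 in non-cycling T cells. S and G2/M over non-cycling T cells became 15.0 and 12.2, with 27 members past 2-fold in both libraries. The share of all genes after thinning is not given here.

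For combo over lenvatinib in all, T and cycling T cells in turn, no cell filter gave 0.828, 0.771 and 0.723, a stricter limit on genes and mt- UMIs 0.758, 0.739 and 0.641, a total without mt-, ribosomal and hemoglobin genes 0.761, 0.791 and 0.715, and leaving out Hist1h2ap 0.836, 0.827 and 0.730. At least 4 markers gave 0.735 in T and 0.661 in cycling T cells, and at least 2 cycling genes 0.724 in cycling T cells. In S and G2/M T cells the stricter cell limit gave 0.913, leaving out Hist1h2ap 0.922 and at least 4 cycling genes 0.923. Members past 2-fold lower under combo numbered 20 with the stricter cell limit, and 33 were past 1.5-fold lower. The share of all genes under these settings is not given here, so these counts cannot be set against it.

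S and G2/M over non-cycling cells was 7.75 and 5.14 without Hist1h2ap, 6.80 and 4.44 with at least 2 cycling genes, 11.3 and 7.60 with at least 4, and under combo 5.89 with no cell filter and 5.72 with the reduced total. S over non-cycling cells under combo was 0.904 with at least 2 cycling genes. The ratio of cycling shares in T cells was 0.550 with at least 2 cycling genes, 0.241 with at least 4, 0.274 when thinned to fewer UMIs and 0.599 without thinning. Leaving out doublets or barcodes found in both libraries moved no value beyond these limits. The causes were not tested.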
